A study of Mus musculus with 16 samples.

Results

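The genes described here are those of the mitochondrial genome, chromosome M, in immortalised mouse embryonic fibroblasts (MEFs). All genes that the annotation places on chromosome M were taken by their Ensembl identifier, which gave 37 of the 54453 genes in the table, namely 13 protein-coding genes, 2 ribosomal RNA (rRNA) genes and 22 transfer RNA (tRNA) genes. The total RNA libraries number 16, 1 for each parental line (MEF-1 and MEF-2) and 1 for each of 14 clonal lines, 7 per origin. The 2 parental lines come from sibling E13.5 embryos of the strain C57BL/6J, carry no named mutation or transgene, received no treatment, and were immortalised by serial passaging, and each clonal line was grown from 1 sorted cell of its parental line. Each clonal line is for this reason 1 clone, all lines of one origin go back to 1 embryo, and a difference between MEF-1 and MEF-2 cannot be told apart from a difference between 2 embryos, between 2 immortalisations or between the sexes, since by the study's PCR typing MEF-1 is male and MEF-2 female. The study used these RNA data to relate expression to the inheritance of DNA methylation, and chromosome M was not a question of its own.

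The mitochondrial genome is a small circle that is present in many copies per cell and passes from mother to offspring. Both of its strands are transcribed into long precursors, from which the tRNAs, lying between the other genes like punctuation, are cut out to release the mRNAs and rRNAs. Its mRNAs encode core subunits of the respiratory chain (complexes I, III and IV) and of ATP synthase, its rRNAs and tRNAs serve the translation of these mRNAs inside the organelle, and all other proteins of mitochondria are made from nuclear genes.

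Values are regularised log (rlog) values as the authors deposited them. They are on a log2 scale after correction for library size, and differences between lines are pulled towards the gene's average, the more so the fewer the reads. Counts are not part of the table, so the depth behind a value is unknown. The level that each line gives to genes without reads, which falls as the size factor rises, ran from −2.285 to −2.279 over the 16 lines. It is the median of 2855 genes with an average below −2.2, and genes listed at 0 in every line are not among them. It did not separate the origins (exact permutation test, two-sided, 7 against 7 clonal lines, p = 0.887). By average over the 16 lines, all 11 fibroblast markers looked at (collagens, Pdgfra, Vim, Thy1 and others) lay above the 40th percentile of protein-coding genes. Of the other markers, 1 of 4 epithelial, 0 of 3 endothelial, 1 of 3 blood cell and 0 of 3 muscle markers did. In single lines Thy1 ran from 2.72 to 10.22, with that percentile at 3.75. In bulk RNA, fewer cells of a type and less RNA per cell cannot be told apart, and in the same way fewer mitochondrial genomes and less RNA per genome cannot be told apart.

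Some sequences bear on how far these values can be read gene by gene. The mouse nuclear genome holds stretches of mitochondrial DNA, annotated as pseudogenes, and a read from a stretch that is identical in both places has no unique origin. The last bases of mt-Co2, which encodes a core subunit of cytochrome c oxidase (complex IV), are given with the end of its nuclear copy Gm28661. Capitals mark the bases that the annotated copy lacks. The first of the 2 lies at chrM:7637-7696 on the plus strand and the second at chr1:24614885-24614941 on the minus strand of mm10.
mt-Co2: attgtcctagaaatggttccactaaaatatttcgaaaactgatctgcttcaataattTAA
Gm28661: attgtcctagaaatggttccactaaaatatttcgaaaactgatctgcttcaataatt

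Of the 684 bases of mt-Co2, 681 aligned to Gm28661 with 0 differences, so that the pair is told apart only by the end of the transcript. The next pair shows the one aligned base that differs between mt-Nd3, a complex I subunit (chrM:9459-9518, plus strand), and its copy Gm28438 (chr1:24613060-24613119, minus strand), in capitals. It is T3C, counted from 1 at the 5′ end of mt-Nd3.
mt-Nd3: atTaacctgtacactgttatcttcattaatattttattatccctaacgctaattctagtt
Gm28438: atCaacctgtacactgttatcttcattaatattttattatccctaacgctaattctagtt

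Genes of chromosome M also overlap each other. The whole of mt-Atp8, a subunit of ATP synthase (chrM:7766-7969, plus strand), is given with the part that it shares with mt-Atp6, the proton channel subunit of the same enzyme, in capitals. These 43 bases (chrM:7927-7969) are read in both genes, and both proteins are made from 1 joint mRNA.
mt-Atp8: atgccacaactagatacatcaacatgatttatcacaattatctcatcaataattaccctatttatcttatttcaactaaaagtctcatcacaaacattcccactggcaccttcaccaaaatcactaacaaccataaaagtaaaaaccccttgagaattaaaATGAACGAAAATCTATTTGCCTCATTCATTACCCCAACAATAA

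Likewise mt-Nd4l and mt-Nd4 share 7 bases on one strand (chrM:10167-10173), and mt-Nd5 and mt-Nd6 share 14 bases on opposite strands (chrM:13552-13565). Of the 37 genes, 9 are on the minus strand, namely mt-Nd6 and 8 tRNA genes. The mRNAs are nearly without untranslated ends. Of the 13, 3 (mt-Co3, mt-Nd4 and mt-Cytb) end in a lone T where the other 10 carry a complete stop codon.

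The tRNA genes gave next to no signal. Of the 22, 16 were listed at 0 in every line (mt-Tf, mt-Ti, mt-Tq, mt-Ta, mt-Tc, mt-Ty, mt-Td, mt-Tk, mt-Tg, mt-Tr, mt-Th, mt-Ts2, mt-Tl2, mt-Te, mt-Tt and mt-Tp), and 5 had an average below 0, which is the range of genes with a few reads in a few lines. The value 0 in every line was given to 23600 of the 54453 genes in the table. It is a constant and does not place these 16 tRNA genes above the 5 with an average below 0. The tRNA of valine, mt-Tv, stood above the level of genes without reads only in the MEF-1 parental line, at −2.25. Those of asparagine (mt-Tn) and of serine (mt-Ts1) did so only in MEF-2 clonal line 2, at −2.26, and in MEF-2 clonal line 5, at −2.27. For one tRNA of leucine, mt-Tl1, 3 lines stood above the others, with MEF-2 clonal line 7 highest at −1.62, and for that of tryptophan, mt-Tw, 4 lines did, with MEF-2 clonal line 3 highest at −0.87. The tRNA genes are 59 to 75 bases long and the reads 150 bases, and the part of this in the low values was not tested.

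The tRNA of methionine, mt-Tm, was the exception with an average of 1.91, the one tRNA gene that entered the fits. Its 69 bases end directly before mt-Nd2, a complex I subunit, and are given in lower case with the first 30 bases of mt-Nd2 in capitals (chrM:3845-3943, plus strand).
mt-Tm and mt-Nd2: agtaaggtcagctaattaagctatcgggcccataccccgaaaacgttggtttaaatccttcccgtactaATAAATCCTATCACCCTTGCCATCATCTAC

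In the MEF-1 clonal lines, mt-Tm ran from 1.65 over a median of 1.77 to 2.38, and in the MEF-2 clonal lines from 1.59 over 1.75 to 2.68. The parental lines gave 1.79 (MEF-1) and 1.70 (MEF-2). The lines of both origins overlapped over most of their range, with MEF-2 clonal line 7 highest and MEF-2 clonal lines 1 and 2 lowest.

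The rRNAs of the mitochondrial ribosome were near the top of the whole table. By average over the 16 lines, mt-Rnr2, the rRNA of the large subunit, was 2nd of the 54453 genes at 21.60, and mt-Rnr1, that of the small subunit, was 6th at 20.41. Both are RNAs of the kind that rRNA depletion is meant to remove, and the libraries were depleted of rRNA with probes and RNase H, so that their values reflect what the depletion left behind in each library. The extent to which depletion differed between lines was not tested.

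The mRNAs followed from rank 14 downwards. Highest was mt-Co1, the catalytic subunit of complex IV (average 18.79, rank 14), followed by mt-Co3 of the same complex (17.20, rank 46), mt-Cytb, the cytochrome b of complex III (16.76, rank 68), and the complex I subunits mt-Nd5 (16.47, rank 93), mt-Nd1 (16.29, rank 107) and mt-Nd4 (16.28, rank 109). Further down were mt-Nd2 (15.02), mt-Atp6 (14.94), mt-Nd3 (13.59), mt-Nd4l (13.56), mt-Atp8 (13.40) and mt-Nd6 (13.14). Lowest of the 13 was mt-Co2, at 12.17 and rank 3913. The lowest single value among the 13 was 11.76.

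**Figure D1:**
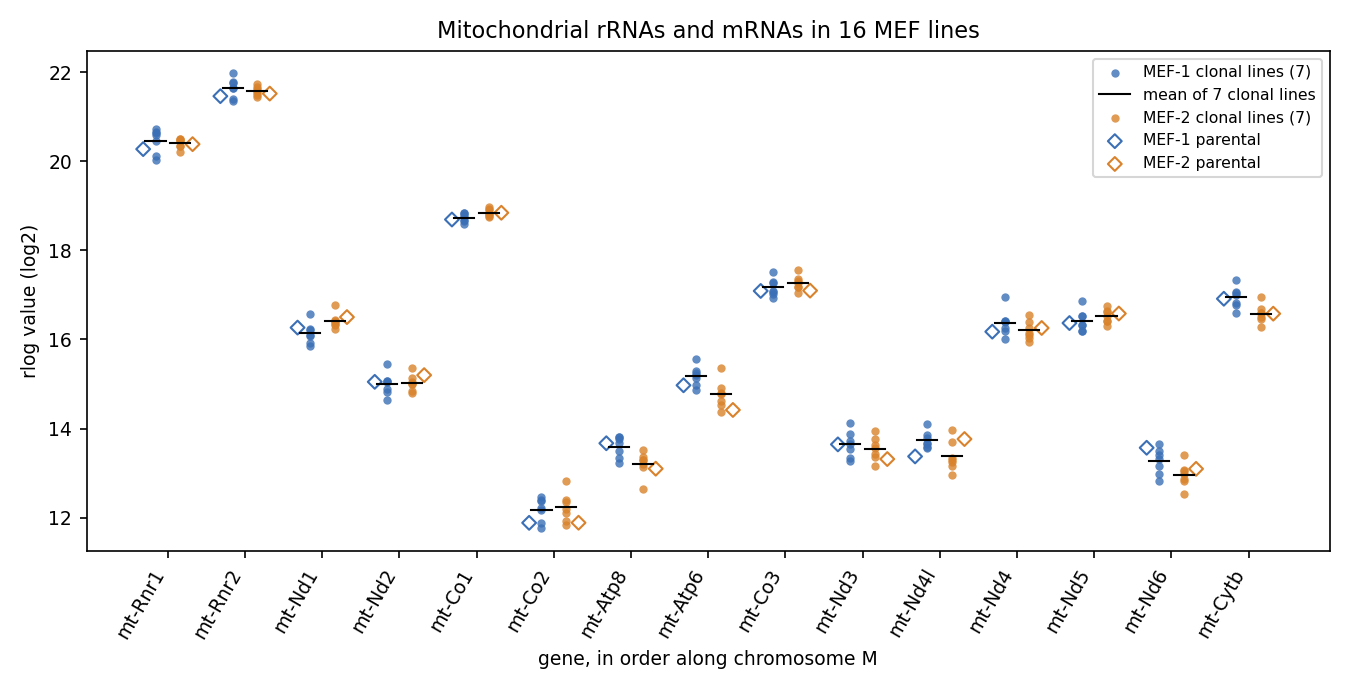
rlog value (log2, vertical axis) of the 2 rRNAs and 13 mRNAs in order along chromosome M (horizontal axis). Points are clonal lines, 7 per origin, black bars their means and open diamonds the parental lines. The differences between genes, from 12.17 for mt-Co2 to 21.60 for mt-Rnr2 on average, are far wider than the spread between lines of one gene.

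Since longer transcripts give more fragments, levels of different genes are compared as the average rlog value minus the log2 of the length in kilobases. The length is the full annotated one, from 204 bases for mt-Atp8 to 1824 for mt-Nd5 among the mRNAs. What reads of 150 bases mean for the place of the shortest genes in the order was not tested. Per kilobase, mt-Rnr2 stood at 20.94 (SD 0.16, n = 16 lines) and mt-Rnr1 at 20.48 (SD 0.19). Next came mt-Co1 at 18.16 (SD 0.10), mt-Co3 at 17.55 (SD 0.17), mt-Cytb at 16.57 (SD 0.27), mt-Nd1 at 16.36 (SD 0.23) and mt-Nd4 at 15.82 (SD 0.24). From mt-Atp8 (15.69) over mt-Nd5 (15.61), mt-Atp6 (15.49), mt-Nd4l (15.32) and mt-Nd3 (15.11) to mt-Nd2 (14.97) the steps were small, at most 0.21. The minus-strand gene mt-Nd6 was lower at 14.09 (SD 0.31), and mt-Co2 last at 12.72 (SD 0.29).

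Of the 14 pairs of neighbours in this order, 7 stood in the same order in all 16 lines. These were mt-Rnr2 above mt-Rnr1, mt-Rnr1 above mt-Co1, mt-Co1 above mt-Co3, mt-Co3 above mt-Cytb, mt-Nd1 above mt-Nd4, mt-Nd2 above mt-Nd6 and mt-Nd6 above mt-Co2. For the others the order turned between lines. Thus mt-Cytb was above mt-Nd1 in only 9 of 16 lines and mt-Nd5 above mt-Atp6 in only 7. Both of these pairs turned between the averages of the origins. In MEF-1 mt-Cytb was at 16.75 and mt-Nd1 at 16.22, and in MEF-2 they were at 16.39 and 16.49. For mt-Nd5 and mt-Atp6 the averages were 15.55 and 15.71 in MEF-1, and 15.67 and 15.28 in MEF-2. Between mt-Nd4 and mt-Nd2, the genes were not separated by more than their spread from the next one.

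The place of mt-Co2 at the end of this order changes with how its nuclear copies are treated. All 654 stretches of 31 bases in mt-Co2 also occur in nuclear transcripts, 651 of them in Gm28661. In 5 of the 13 mRNAs more than 90% of these stretches are shared, namely mt-Co2, mt-Co3 (99.9%), mt-Atp6 (99.5%), mt-Nd4l (98.9%) and mt-Nd3 (98.1%). For mt-Co1 (63.9%) and mt-Nd4 (62.8%) the share was lower, and for the other 6 mRNAs it was between 0 (mt-Nd1) and 16.8% (mt-Nd5). No stretch of mt-Rnr1 and 2.71% of those of mt-Rnr2 were shared. The copies of mt-Nd4, mt-Nd4l, mt-Nd3, mt-Co3, mt-Atp6 and mt-Co2, and of part of mt-Co1, lie side by side on the minus strand of chromosome 1, between 24611535 and 24616197.

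The copies of 5 of these genes matched chromosome M over their whole length, with 681 of 681 bases for Gm28661 (mt-Co2), 678 of 678 for Gm10925 (mt-Atp6), 783 of 783 for Gm28437 (mt-Co3), 294 of 294 for Gm10222 (mt-Nd4l) and 876 of 876 for Gm28439 (mt-Nd4). Gm28661 averaged 17.32 (17.13 to 17.68 over the 16 lines), far above the 12.17 of mt-Co2. In every line mt-Co2 held little of the sum of gene and copies on the linear scale, from 1.78% to 3.57%.

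For the other pairs the division differed. Gm10925 averaged 16.50, above mt-Atp6, which held 21.9% to 30.1% of the sum. Gm28437 averaged 13.90, and mt-Co3 held 86.1% to 95.0% of the sum. A pair of copies moved widely between lines. Gm28439 ran from 8.94 to 13.25, with MEF-1 clonal line 2 lowest, and mt-Nd4 held 86.5% to 99.6% of the sum. Gm10222 ran from 7.63 to 12.40, with MEF-2 clonal line 7 and MEF-1 clonal line 3 both near the lower end, and mt-Nd4l held 63.1% to 98.5%. By contrast Gm28438, which carries the substitution T3C shown above and is 3 bases shorter than mt-Nd3, averaged only 1.07. The remaining copies with an average above 0 were Gm13341 of mt-Co2 (6.96), Gm29216 (6.32), Gm13340 (5.55) and Gm11512 (1.32) of mt-Co1, and Gm11407 of mt-Nd5 (0.37). Each was lower than its gene in average. Reads of an identical stretch cannot be assigned from these values, so the levels of mt-Co2, mt-Atp6, mt-Co3, mt-Nd4 and mt-Nd4l are uncertain by the amounts given.

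**Figure D2:**
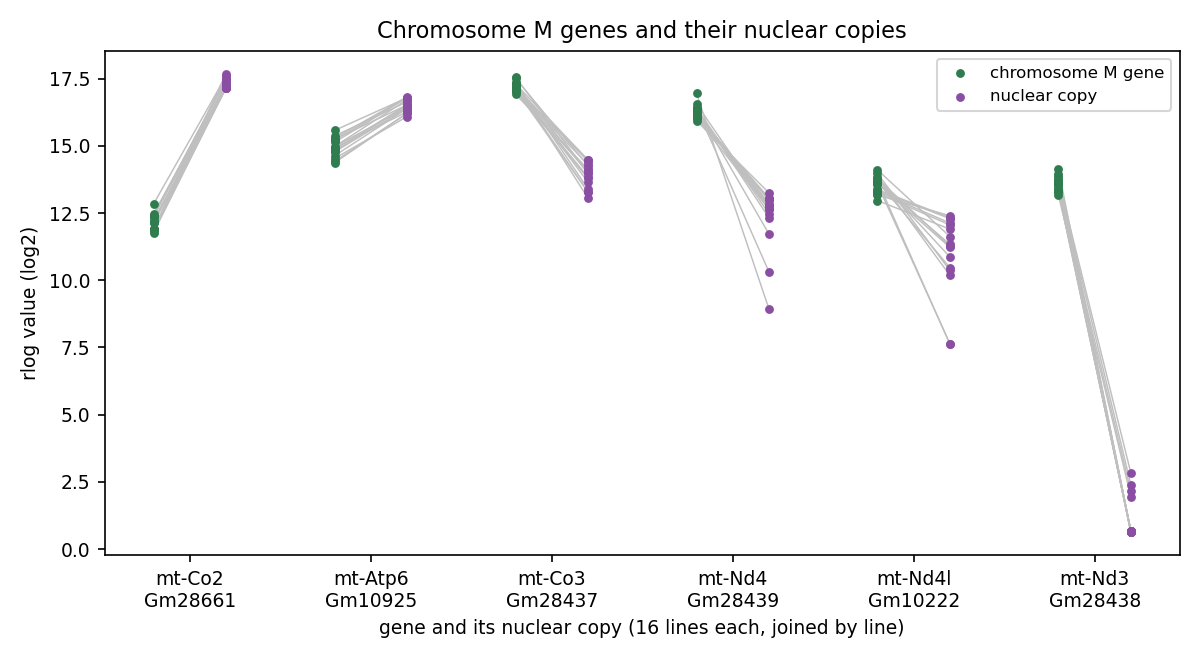
rlog value (log2, vertical axis) of 6 genes of chromosome M (green) and of the nuclear copy of each (purple), with 16 lines per gene joined by line. For mt-Co2 and mt-Atp6 the copy is listed higher than the gene in all lines. For mt-Co3 and mt-Nd4 it is lower, and Gm10222 and Gm28439 spread over several units.

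When gene and copies were added on the linear scale, an alternative chosen after seeing the data, the levels per kilobase of a few genes moved, and with them the places of all genes in the order except mt-Rnr2, mt-Rnr1, mt-Co1 and mt-Nd4l. mt-Co2 went from 12.72 to 17.91, the 4th place of 15, beside mt-Co1 (18.16) and mt-Co3 (17.70), the other mitochondrial subunits of complex IV. mt-Atp6 went from 15.49 to 17.48 and the 6th place, while mt-Nd4l went from 15.32 to 15.63 and mt-Nd4 from 15.82 to 15.93. The range between the highest and the lowest mRNA narrowed from 5.44 to 4.07, with mt-Nd6 then the lowest.

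**Figure D3:**
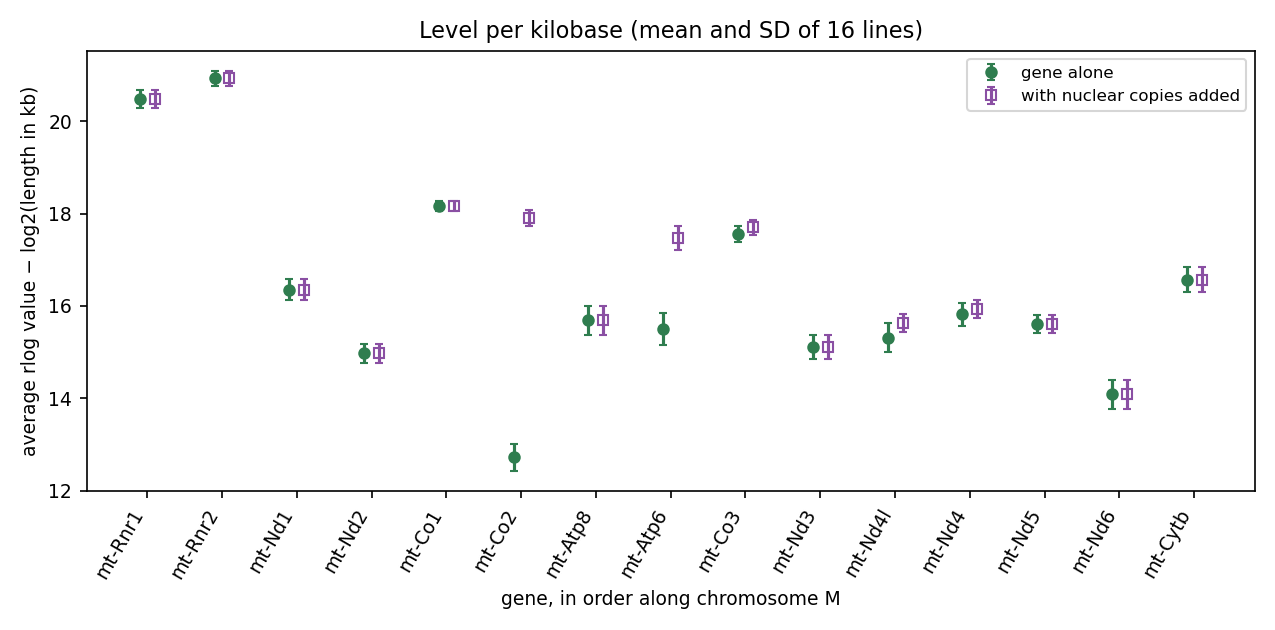
Average rlog value minus log2 of the length in kb (vertical axis) of the 15 rRNAs and mRNAs along chromosome M, as mean and SD of 16 lines, for the gene alone (circles) and with its nuclear copies added (squares). mt-Co2 moves from 12.72 to 17.91 and mt-Atp6 from 15.49 to 17.48, while the other genes move by at most 0.31.

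Some clonal lines stood high or low over most of the mitochondrial mRNAs at once. In MEF-2, clonal line 4 was the highest of the 7 in 13 of 13 mRNAs, with a median deviation from the mean of the 7 lines of 0.35. In MEF-1, clonal line 2 was the highest in 10 of 13 (median deviation 0.39) and clonal line 3 the lowest in 10 of 13 (−0.31). The lowest MEF-2 lines were clonal line 1, lowest in 7 of 13 (−0.22), and clonal line 7, lowest in 6 of 13 (−0.18). As the 13 mRNAs come from joint precursors and lie in 1 library per line, these counts are a description of those libraries.

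The cytochrome b mRNA can stand as an example. In the MEF-1 clonal lines mt-Cytb was at 16.81, 17.34, 16.59, 16.76, 17.00, 17.05 and 17.06 in lines 1 to 7, and in the MEF-2 clonal lines at 16.28, 16.68, 16.51, 16.95, 16.58, 16.60 and 16.47. Line 2 of MEF-1 and line 4 of MEF-2 were at the top of their sets, line 3 of MEF-1 and line 1 of MEF-2 at the bottom. For mt-Nd4, MEF-1 clonal line 2 stood apart at 16.95 from the next line at 16.41, and for mt-Nd1 MEF-2 clonal line 4 did so at 16.77 from the next at 16.44.

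In MEF-1 the exceptions were mt-Co2, where clonal line 5 was highest (12.46) and clonal line 4 lowest (11.76), mt-Atp8, where clonal line 7 was highest (13.82), mt-Co1, where clonal line 6 was highest (18.84) and clonal line 1 lowest (18.59), and mt-Co3, where clonal line 4 was lowest (16.92). With the nuclear copies added, MEF-1 clonal line 2 was highest in 11 of 13 and MEF-2 clonal line 4 still in 13 of 13.

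The rRNAs followed the mRNAs in some of these lines and not in others. MEF-1 clonal line 2, at the top for the mRNAs, was close to the mean for the rRNAs with 20.45 for mt-Rnr1 and 21.65 for mt-Rnr2. Here MEF-1 clonal line 1 was highest at 20.71 and 21.97, while clonal line 3, lowest for most mRNAs, was also lowest here at 20.03 and 21.34. In MEF-2 the highest values were those of clonal line 5 for mt-Rnr1 (20.50) and of clonal line 1 for mt-Rnr2 (21.73), and clonal line 4 was 0.09 above the mean in the median of both.

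In the nuclear genes of the same machinery, some of the lines stood differently. The median deviation over the respiratory chain genes had the opposite sign to the mRNAs in MEF-1 clonal lines 2 and 5. The same held in MEF-2 clonal lines 2, 6 and 7. In the other clonal lines the sign was the same, as in MEF-1 clonal line 6 (0.09 for the mRNAs, 0.08 for the nuclear genes). The median of the mRNAs was near 0 in MEF-2 clonal lines 2 (−0.003) and 3 (−0.008), so that its sign there says little. With nuclear copies added it was 0.03 in MEF-2 clonal line 3 and −0.0007 in MEF-1 clonal line 5. Over 91 nuclear-encoded genes of the respiratory chain, the median deviation was −0.08 in MEF-1 clonal line 2 and −0.07 in clonal line 3, which stood at opposite ends for the mitochondrial mRNAs, and 0.03 in MEF-2 clonal line 4. MEF-2 clonal line 7, low for the mitochondrial mRNAs, was at 0.10 and highest for 37 of the 91, and MEF-2 clonal line 3 was at −0.14 and lowest for 57. Over 78 genes of mitochondrial ribosomal proteins it was −0.12 in MEF-1 clonal line 2, −0.02 in MEF-1 clonal line 3, 0.01 in MEF-2 clonal line 4, and 0.10 in clonal line 7 of MEF-2. In MEF-1 it was clonal line 5 that was highest for 51 of the 91 respiratory chain genes. The median over 13123 protein-coding genes above the 40th percentile stayed within −0.02 and 0.03 in all 14 clonal lines, and the level of genes without reads was −2.282 in both MEF-1 clonal line 2 and MEF-2 clonal line 4, within the range of the other lines.

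**Figure D4:**
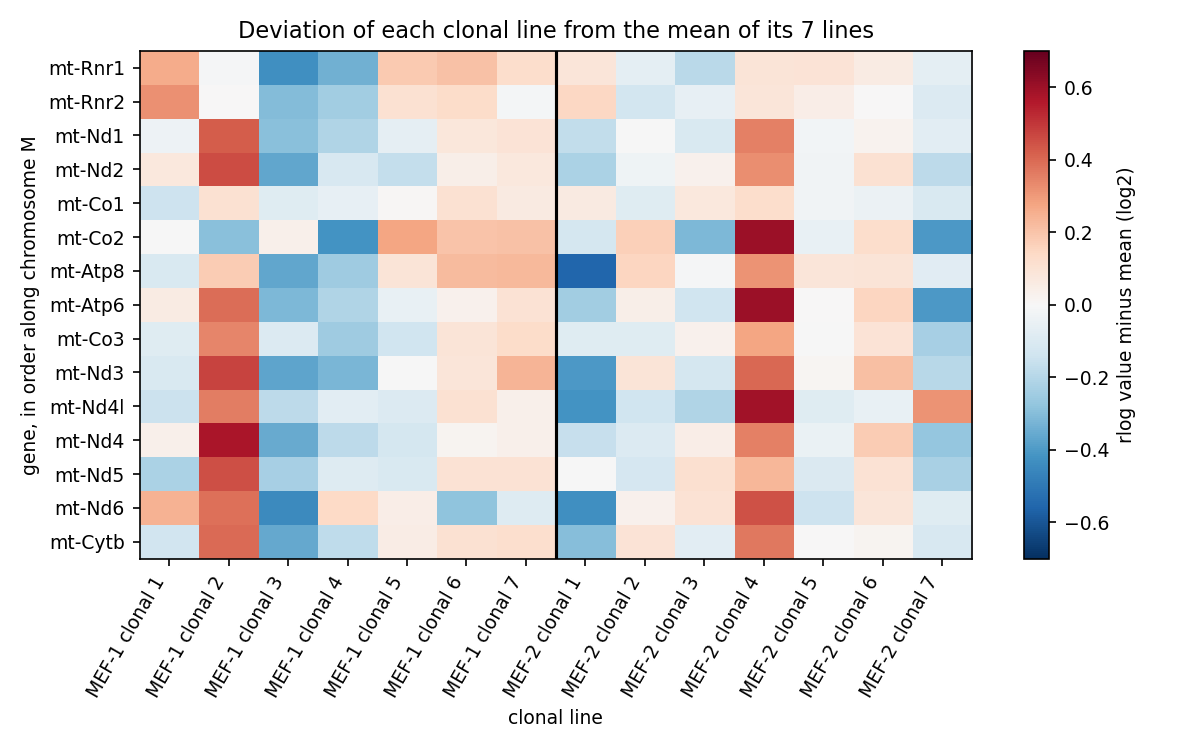
Deviation of the rlog value from the mean of the 7 clonal lines of the same origin (colour, log2) for 15 genes (rows) and 14 clonal lines (columns). MEF-1 clonal 2 and MEF-2 clonal 4 are red over nearly all mRNAs and MEF-1 clonal 3 is blue, while in the 2 rRNA rows MEF-1 clonal 1 is the most red.

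In numbers, the SD between the 7 clonal lines had a median over the 13 mRNAs of 0.24 in MEF-1 and 0.21 in MEF-2. Over the 3898 nuclear genes with an average at or above that of the lowest mitochondrial mRNA it was 0.14 and 0.11, and over all 21313 genes fitted 0.22 and 0.19. The catalytic subunit mRNA mt-Co1 varied least, with an SD of 0.10 in MEF-1 and 0.09 in MEF-2, below the medians of those nuclear genes. The widest were mt-Nd3 in MEF-1 (0.30) and mt-Nd4l in MEF-2 (0.34). With Gm10222 added, the SD of mt-Nd4l was 0.17 in MEF-2, while in MEF-1 it went from 0.19 to 0.23. That of mt-Co2 in MEF-2 went from 0.34 to 0.15 with its copies added. No test was made on these spreads.

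The main comparison asks whether the clonal lines differ by origin, 7 of MEF-2 against 7 of MEF-1, with limma over all 21313 genes with an average above 0 and a call at an adjusted p under 0.05. Of the 16 genes of chromosome M fitted, 5 were called. mt-Atp6 and mt-Atp8, the ATP synthase subunits, mt-Cytb of complex III and mt-Nd4l of complex I were lower in MEF-2, and mt-Nd1 of complex I was higher. These 5 of 16 (31.2%) stand beside 48.3% of all genes fitted, with 22.6% called higher and 25.7% called lower, so that the share of mitochondrial genes called was not above the background. The other 21 of the 37 genes, all tRNAs, did not enter the fit.

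The joint mRNA of ATP synthase was lower in MEF-2 through both of its genes. mt-Atp6 ran from 14.87 over a median of 15.21 to 15.57 in the MEF-1 clonal lines and from 14.37 over 14.77 to 15.37 in the MEF-2 clonal lines. All but 2 MEF-2 lines were below the lowest MEF-1 line, among those above it clonal line 4 at 15.37. The difference was −0.41 (SE 0.14, adjusted p = 0.0211 in limma with Benjamini-Hochberg adjustment), and with Gm10925 added −0.34 (adjusted p = 0.0106).

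For mt-Atp8, which shares only 7.47% of its stretches with nuclear transcripts, the MEF-1 lines ran from 13.23 over 13.69 to 13.82 and the MEF-2 lines from 12.65 over 13.29 to 13.52. The sets overlapped more, with 3 MEF-2 lines below all MEF-1 lines. The difference was −0.39 (SE 0.13, limma adjusted p = 0.0195).

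The mRNA of cytochrome b, mt-Cytb, ran from 16.59 over 17.00 to 17.34 in MEF-1 and from 16.28 over 16.58 to 16.95 in MEF-2, with 4 MEF-2 lines below all MEF-1 lines. The difference was −0.36 (SE 0.11, limma adjusted p = 0.0162), a ratio of 0.778. The calls of mt-Atp6, mt-Atp8 and mt-Cytb held in all 25 alternative fits.

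For mt-Nd4l the MEF-1 lines ran from 13.56 over 13.67 to 14.10 and the MEF-2 lines from 12.96 over 13.29 to 13.97. There were 5 MEF-2 lines below all MEF-1 lines, and the other 2, clonal lines 4 and 7, were at 13.97 and 13.70. The neighbour mt-Nd4, which overlaps mt-Nd4l by 7 bases, gave −0.17 and was not called (limma adjusted p = 0.282). The difference of mt-Nd4l was −0.37 (SE 0.13, limma adjusted p = 0.0349). With Gm10222 added it was −0.12 and no longer called (adjusted p = 0.35), so that the difference in mt-Nd4l cannot be told apart from a different division of reads between gene and copy. The call was also lost without a filter on low values (adjusted p = 0.0562), in the exact permutation test (adjusted p = 0.0622), with the parental lines added (−0.27, adjusted p = 0.104), and without any one of MEF-1 clonal lines 2, 6 and 7 or MEF-2 clonal lines 1, 2, 3, 5 and 6, with differences of −0.36 to −0.30 and adjusted p from 0.0541 to 0.0739 in limma.

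The complex I subunit mt-Nd1, which shares no stretch with nuclear transcripts, was higher in MEF-2. It ran from 15.85 over 16.11 to 16.56 in MEF-1 and from 16.24 over 16.40 to 16.77 in MEF-2, where only clonal line 4 was above all MEF-1 lines. The difference was 0.28 (SE 0.10, limma adjusted p = 0.0362). The call was lost without any one of MEF-1 clonal lines 1, 3, 4 and 5 or MEF-2 clonal lines 2, 4, 5 and 6, with differences of 0.22 to 0.28 and adjusted p from 0.0522 to 0.0775 in limma. In limma the call was also lost without a filter on low values (adjusted p = 0.0574) and with lines centred on autosomal genes (0.0561). The same held with quantile normalization (difference 0.21, limma adjusted p = 0.129), with a replicate block (0.0581) and in the exact permutation test (0.0524). Over all 25 alternatives mt-Nd1 was called in 12, with adjusted p from 0.00486 to 0.129.

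**Figure D5:**
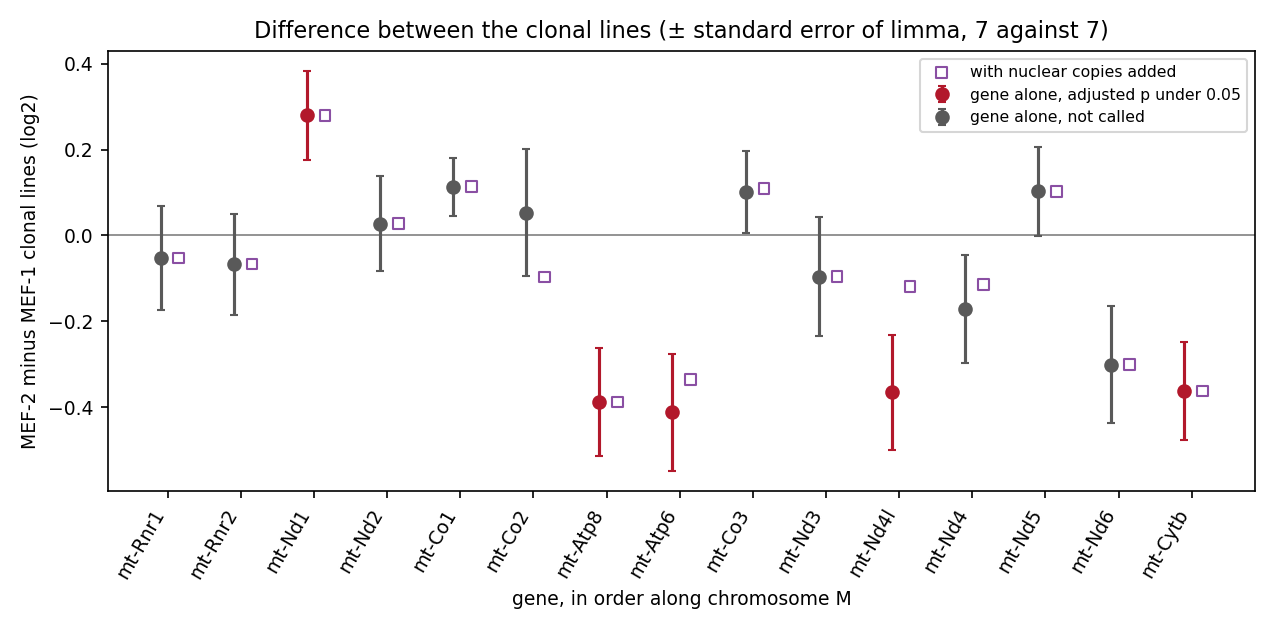
Difference in rlog value (log2, vertical axis), 7 MEF-2 clonal lines minus 7 of MEF-1, for 15 genes along chromosome M, with the standard error of limma. Red points have an adjusted p under 0.05, and squares give the difference with nuclear copies added. mt-Atp8, mt-Atp6 and mt-Cytb lie between −0.41 and −0.36, and mt-Nd4l moves from −0.37 to −0.12 with its copy added.

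The other 11 genes were not called. Nearest was the minus-strand mRNA mt-Nd6, with −0.30 (SE 0.14, limma adjusted p = 0.0823, unadjusted p = 0.044). The complex IV subunits gave 0.11 (SE 0.07) for mt-Co1, 0.10 (SE 0.10) for mt-Co3 and 0.05 (SE 0.15) for mt-Co2, the last turning to −0.10 with its copies added. The complex I subunits gave 0.10 for mt-Nd5, 0.03 for mt-Nd2, −0.10 for mt-Nd3 and −0.17 for mt-Nd4. The rRNAs gave −0.05 (SE 0.12) for mt-Rnr1 and −0.07 (SE 0.12) for mt-Rnr2, and mt-Tm −0.04 (SE 0.17). By complex, the calls were 1 higher and 1 lower of 7 genes in complex I and 1 lower of 1 in complex III. They were 0 of 3 in complex IV and 2 lower of 2 in ATP synthase, whose 2 genes have 1 joint mRNA. These few genes stand beside 22.6% called higher and 25.7% called lower of all genes fitted. In none of the 16 genes were the lines of one origin all above those of the other, which 21.3% of all genes fitted were.

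The second comparison sets the 14 clonal lines against the 2 parental lines, with origin as a covariate. None of the 16 genes was called by limma, 0 were at an unadjusted p under 0.05, and the lowest unadjusted p was 0.129, beside 0.169% of all genes fitted that were called (36 of 21313, with 0.0657% higher and 0.103% lower in the clonal lines). The difference farthest above 0 was that of mt-Co2, 0.32 (SE 0.20, limma adjusted p = 0.442). It was 0.12 with its copies added. The difference farthest below 0 was that of mt-Nd6, −0.22 (SE 0.19, limma adjusted p = 0.588). The MEF-1 parental line was within the range of its clonal lines for 15 of 16 genes and below all of them for mt-Nd4l, at 13.38, where Gm10222 was at 12.33 in that line, and with the copy added it was inside the range at 13.94. The MEF-2 parental line was within the range for 16 of 16. With 2 parental libraries, differences of the size of the standard errors cannot be seen.

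Nuclear genes that make or use mitochondrial RNA were followed in the same comparison by origin. Of 68 genes of mitochondrial DNA replication, transcription, RNA processing, RNA stability and translation, 30 were called higher and 11 lower in MEF-2, with a median difference of 0.16. These shares of 44.1% and 16.2% stand beside 22.6% and 25.7% of all genes fitted, whose median was −0.02, and the difference between the shares was not tested. Chromosomes 12, 18 and 19 are aneuploid in some lines of the study, and without their genes the counts were 27 and 11. The counts of the smaller lists that follow are to be read beside the same background of 22.6% higher and 25.7% lower.

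Of 7 transcription genes, 5 were higher and 1 lower. The largest of these differences was that of Mterf1b, higher by 0.32 (SE 0.13, limma adjusted p = 0.0495). Its call was lost with lines centred on autosomal genes. Lower was Mterf3, a repressor of mitochondrial transcription, by −0.30 (SE 0.05, limma adjusted p = 0.000116), and higher was Mterf1a, a terminator of transcription, by 0.29 (SE 0.09, adjusted p = 0.0129). Of 7 replication genes, 2 were higher and 2 lower, among them Rnaseh1, which removes RNA from RNA-DNA hybrids, at 0.54 (SE 0.06), Top1mt, the mitochondrial topoisomerase, at 0.43 (SE 0.07) and Polg2, the accessory subunit of the mitochondrial DNA polymerase, at −0.39 (SE 0.09). Of 4 genes of RNA processing, 2 were higher. These were 1110008L16Rik, which cuts the 5′ ends of tRNAs, at 0.49 (SE 0.06) and Elac2, which trims their 3′ ends, at 0.33 (SE 0.09). Rnaseh1 and 1110008L16Rik lie on chromosome 12.

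Of 10 genes of RNA stability, 3 were higher and 2 lower. Slirp, which with Lrpprc binds and stabilises mitochondrial mRNAs, was higher by 0.64 (SE 0.06, limma adjusted p = 5.79e-07) and is on chromosome 12. Grsf1, a protein of mitochondrial RNA granules, was lower by −0.43 (SE 0.05, adjusted p = 3.65e-06). Tfb1m, which methylates the small rRNA, was higher by 0.63 (SE 0.10), as part of 5 higher and 1 lower of 9 genes of rRNA modification and ribosome assembly. Of 11 translation factors, 6 were higher and 2 lower, with Taco1, needed to translate mt-Co1, higher by 0.45 (SE 0.09). Of 17 mitochondrial aminoacyl-tRNA synthetases, 6 were higher and 3 lower, with Mars2, that of methionine, higher by 0.82 (SE 0.08, limma adjusted p = 5.02e-07).

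The nuclear genes of the proteins that work together with the mitochondrial products were called in both directions. Of 78 genes of mitochondrial ribosomal proteins, 22 were higher (28.2%) and 13 lower (16.7%, median 0.05), which became 20 and 16 with lines centred or quantile-normalized and 22 and 9 without chromosomes 12, 18 and 19, with Mrps6 lower by −0.87 (SE 0.12). Of 91 nuclear-encoded genes of the respiratory chain fitted, of 95 in all, 20 were higher (22%, close to the 22.6% of all genes) and 15 lower (16.5%, median 0.02). The balance turned to 17 higher and 19 lower with lines centred on autosomal genes, and to 16 and 19 with quantile normalization. In the main fit there were 9 higher and 9 lower of 46 in complex I. In complex II there were 1 and 0 of 4 (Sdhc at 0.15, SE 0.04), and in complex III 2 and 1 of 9. In complex IV there were 4 and 4 of 15, and in ATP synthase 4 and 1 of 17. The 91 genes were taken by the start of their symbols. Those counted under complex I (Nduf) for this reason include assembly factors such as Ndufaf8. Of the ATP synthase genes called, Atp5mpl, higher by 0.78 (SE 0.06), lies on chromosome 12 and Atp5a1, higher by 0.49 (SE 0.12), on chromosome 18.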

How the data were processed

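RNA was extracted from cultured cells, depleted of rRNA with probes and RNase H, and made into directional libraries sequenced as paired-end reads of 150 bases. Per the labels, the authors trimmed reads with Trim Galore 0.6.0, quantified transcripts with Salmon 1.5.2 against mm10 (Ensembl release 102) and deposited log2 values from the rlog transformation of DESeq2 1.24.0. The summing of transcripts to genes, the use of strand and the setting of the rlog transformation (blind or not) are not given in the sources used here. Fragmentation time varied with RNA integrity and is not given per line.

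Genes were matched to GENCODE mouse release 21 (Ensembl release 96, mm10), where 253 of 54453 identifiers were absent. Sequences are those of its transcripts, and the 31-base stretches were compared between transcripts of chromosome M and of nuclear genes. Copies that share 10 or more stretches and are not constant over the lines were added to their best-matching gene as powers of 2. For the tRNA genes, the line's level of genes without reads was subtracted from its value, and a line stood above that level when the remainder exceeded the lowest line's by over 0.005, or 0.02 for genes with an average above −2.2. Differences were fitted with limma 3.58.1 (trended variance, R 4.3.3) on genes with an average above 0, with Benjamini-Hochberg adjustment, and checked on simulated data. The tests were planned for counts or log2 values, and since the deposited values are log2, count models were not run. The clonal lines are separate clones of 1 parental line each, so p-values measure the spread between clones. Named genes are all those of chromosome M, the nuclear copies with an average above 0 and, per nuclear list, genes among the 3 called with the largest absolute difference. The members and lists were chosen with earlier results of these data known. Alternatives covered the filter, centring on autosomal genes, quantile normalization, the parental lines, a replicate block, exact permutation and leaving out each clonal line. Python 3.11.15 with pandas 2.3.3, numpy 2.4.6, scipy 1.17.1 and matplotlib 3.10.9 was used.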

Additional observations from a re-analysis of the deposited data

Results flagged for a closer look

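For 3 genes the highest clonal line stood apart from the other 6 of its origin by more of the range than Dixon's 95% critical value allows. mt-Nd1 was at 16.77 in MEF-2 clonal line 4, with the next line at 16.44. mt-Nd4 was at 16.95 in MEF-1 clonal line 2, with the next at 16.41, and the copy Gm28439 had its lowest value, 8.94, in that line. With this copy added, the line was at 16.95 and the next at 16.50, which no longer passed the limit. With its nuclear copies added, mt-Co2 was at 17.64 in MEF-2 clonal line 4, with the next at 17.34. Chance gives about 1 such case in 20 sets, and 2 were found among 32 sets of 7 lines (1.6 expected) and 1 among 10 sets with copies added.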

How the results depend on the processing

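The limits of these values are the unknown depth, the division of reads between identical sequences, and 1 library per line. In MEF-2 against MEF-1, the 3 calls of mt-Atp6, mt-Atp8 and mt-Cytb held in all 25 alternatives, with adjusted p up to 0.0451, 0.0407 and 0.0363, and mt-Nd4l held in 13 and mt-Nd1 in 12. mt-Nd6 was called in 3. The count of genes called higher was 0 in place of 1 without a filter on low values, with lines centred on autosomal genes, with quantile normalization and with the exact permutation test per gene, and 0 to 1 when one clonal line was left out. It was 0 without any one of MEF-1 clonal lines 1, 3, 4 and 5 and MEF-2 clonal lines 2, 4, 5 and 6. mt-Nd4l lost its call without any one of MEF-1 clonal lines 2, 6 and 7 and MEF-2 clonal lines 1, 2, 3, 5 and 6, at −0.36 to −0.30, and also without the filter (adjusted p = 0.0562), in the exact permutation test (0.0622), with parental lines added (0.104) and with its copy added (0.35). The count called lower was 4, and 3 to 5 over the alternatives. mt-Nd6 gained a call without MEF-1 clonal line 3 or MEF-2 clonal line 4, at −0.38 and −0.37, and with the parental lines added, at −0.32 (adjusted p = 0.0445). Differences near 0 changed sign, and the cause was not tested. With quantile normalization these were mt-Rnr2 (0.14), mt-Tm (0.0906) and mt-Nd2 (−0.0131), and with copies added mt-Co2 (−0.0967). With one line left out, mt-Tm ran from −0.164 to 0.0335, mt-Nd2 from −0.0326 to 0.104 and mt-Co2 from −0.0464 to 0.120. The median of all genes was −0.02, −0.04 when centred and 0.03 with quantiles, and 46.8%, 44.2% and 52.9% of the calls were higher. The median level per kilobase of the 13 mRNAs was 15.61, 15.02 without length correction and 15.93 with copies added.

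Clone numbers are shared by MEF-1 and MEF-2 lines but name different cells, and deviations of same-numbered lines correlated by −0.15 to 0.17, with 0 of 7 best with their own number. The replicate block moved the calls over all genes from 10297 to 9795 and the count of mitochondrial genes called higher from 1 to 0, with mt-Nd1 at an adjusted p of 0.0581. Against the parental lines, no alternative gave a call, and the lowest adjusted p was 0.343.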
